A study of Mus musculus with 6 samples.

Results

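The genes described here are 30 markers of the tubule segments of the nephron, listed by name from their known segment, with earlier results of these data known. Of these, 18 belong to the proximal tubule, 11 to the loop of Henle and the distal tubule, and Papss2, a sulphate activation gene, was kept apart. The deposited table held 29 of the 30 among its 22394 genes. Slc12a3, the thiazide-sensitive cotransporter gene of the distal convoluted tubule, had no row and is not analysed here.

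RNA had been sequenced from whole paired kidneys of mouse embryos at E13.5, an early stage of nephron formation. The mutant group was 3 libraries of genotype Foxd1Cre;Ptch1 (flox/-), in which Cre recombinase is made where Foxd1, a gene of renal stromal progenitors, is active, and acts on a floxed allele of Ptch1, the Hedgehog receptor, beside a null allele. The control group was 3 libraries of littermates of genotype Ptch1 (flox/+), for which the labels name no Cre. The groups thus also differed in the Cre and in a null Ptch1 allele present in all cells. These cannot be told apart from loss of Ptch1 in the Foxd1 lineage, which forms stroma and not tubule.

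The nephron tubule arises from progenitors that condense, turn into an epithelial vesicle and elongate through comma-shaped and S-shaped stages. The proximal segment then acquires a brush border, endocytic receptors and transporters that take back protein, glucose, phosphate, amino acids and organic anions, and the loop of Henle and distal tubule acquire the salt transporters that dilute the urine. Most of the genes mark this late differentiation, whereas the transcription factor genes among them (Hnf4a, Tfap2a, Tfap2b, Sim1, Sim2, Mecom and Emx2) act earlier or also in the nephric duct and ureteric bud.

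Depth ranged from 13261588 reads in mutant 2 to 47847925 reads in mutant 3. Control 2 stood apart in its share of reads from mitochondrially encoded genes (0.367%, with the remaining libraries at 1.21% to 2.12%) and had the lowest of limma's library weights, 0.333. Mutant 1 had the next lowest weight, 0.575, and the rest ran from 0.626 to 2.51. Ptch1 was at 8.26, 7.91 and 7.60 FPKM in controls 1 to 3 and at 23.5, 35.8 and 29.8 FPKM in mutants 1 to 3, where FPKM is reads per length of the gene, scaled to the depth of the library. Reads were not split by exon here, so these values do not check the deletion. Nothing in the labels beyond the mention of 3 mice says how the libraries were made, and p-values measure the spread between them.

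At this stage most of the tubule genes were at low levels. Of the 29 in the table, 17 had a mean under 1 FPKM over the 6 libraries, 9 were between 1 and 10 FPKM, and 3 (Wfdc2, Emx2 and Mecom) were above 10 FPKM. Their levels followed 1 library in each group. Control 2 was the highest of the 3 controls for 26 of the 29 genes (89.7%), where it was for 38.6% of all genes in the table, and mutant 1 was the highest of the 3 mutants for 25 (86.2%), where it was for 36.5% of all genes. Both held for 22 of the 29 genes and for 13.8% of all genes. For some genes the order was open, as the 95% exact conditional interval on the ratio to the group's next library (counting error only) included 1. These were Slc3a1, Fbp1, Slc27a2, Umod and Mecom for control 2, and Slc5a2, Slc27a2, Ass1, Umod and Tfap2a for mutant 1. Control 2 was at least 3 times the next control for 13 of the 29, and 5.15% of all genes had such a gap between the highest and the middle control. No gene of the 29 had groups that did not overlap, while 15.4% of all genes in the table did.

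**Figure D1:**
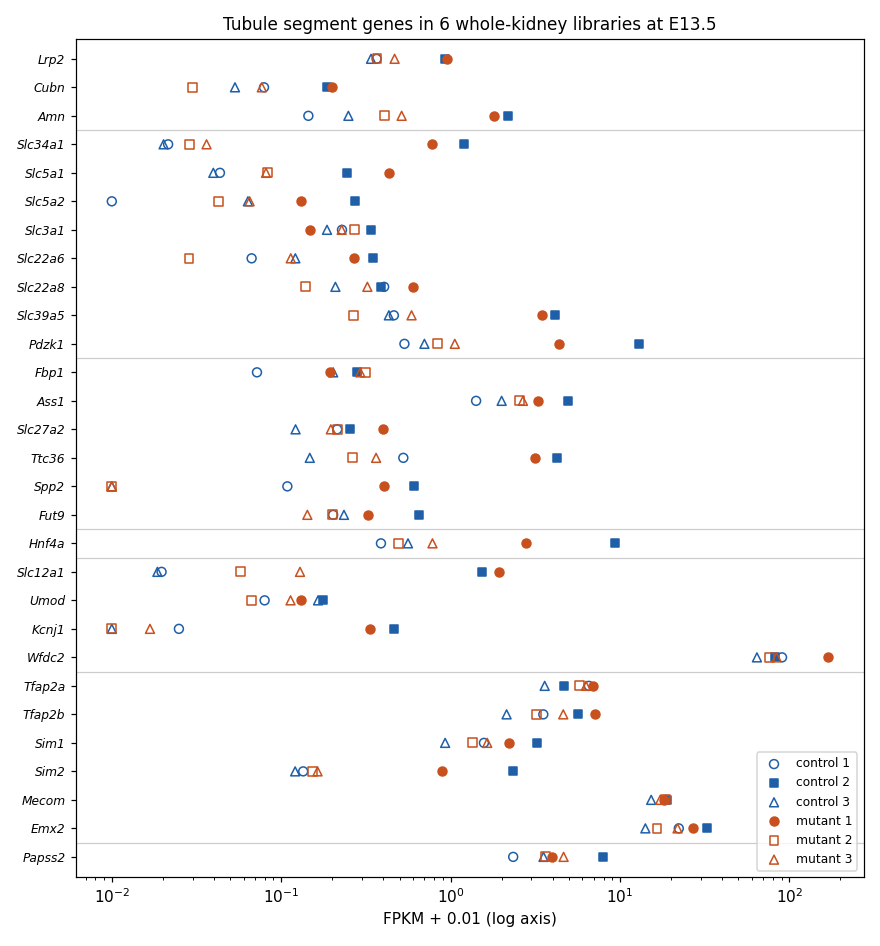
FPKM of the 29 tubule segment genes in each of the 6 libraries, on a log axis after adding 0.01 FPKM, so that a library with no read sits at 0.01. Blue marks controls and orange mutants, filled symbols are control 2 and mutant 1, and grey lines separate the groups of genes. The filled symbols lie to the right of the open ones for Slc34a1, Slc12a1, Kcnj1, Sim2 and Pdzk1, while Mecom lies between 15.3 and 18.9 FPKM in all 6 libraries.

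Hnf4a (ENSMUSG00000017950.16, chr2:163506808-163572910 on GRCm38), the transcription factor that drives proximal tubule differentiation, showed this pattern clearly. It was at 0.378, 9.30 and 0.550 FPKM in controls 1, 2 and 3 (36, 1017 and 59 reads) and at 2.79, 0.480 and 0.772 FPKM in mutants 1, 2 and 3 (267, 28 and 161 reads). Control 2 was 24.6 times control 1 (95% exact conditional interval 17.6 to 35.3, counting error only) and 16.9 times control 3 (13.0 to 22.4), and mutant 1 was 5.81 times mutant 2 (3.93 to 8.91) and 3.61 times mutant 3 (2.96 to 4.42). The 4 other libraries all lay under 1 FPKM.

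The endocytic receptor complex of the proximal tubule is built from megalin (Lrp2) and cubilin (Cubn), with amnionless (Amn) carrying cubilin to the membrane. Lrp2 (ENSMUSG00000027070.14, chr2:69424340-69586065) was at 0.356, 0.918 and 0.329 FPKM in controls 1 to 3 and at 0.946, 0.358 and 0.457 FPKM in mutants 1 to 3. Amn was at 0.135, 2.18 and 0.239 FPKM in the controls and at 1.79, 0.395 and 0.504 FPKM in the mutants. Cubn stayed under 0.2 FPKM in all libraries, with 17, 50 and 12 reads in the controls and 47, 3 and 36 in the mutants. For all 3 genes control 2 was the highest control and mutant 1 the highest mutant.

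Among the transport genes of the proximal tubule, Slc34a1 was barely detected outside these 2 libraries. Slc34a1 (ENSMUSG00000021490.11, chr13:55398187-55415592), the main sodium phosphate cotransporter, had 1, 119 and 1 reads in controls 1 to 3 (0.0115, 1.19 and 0.0102 FPKM) and 67, 1 and 5 reads in mutants 1 to 3 (0.766, 0.0188 and 0.0262 FPKM). Control 2 was 104 times control 1 (95% interval 18.2 to 4126) and mutant 1 was 29.2 times mutant 3 (11.9 to 92.8), wide intervals that rest on 1 and 5 reads in the lower library. Pdzk1 (ENSMUSG00000038298.14, chr3:96829284-96870926), a scaffold that anchors brush border transporters, was at 0.524, 13.0 and 0.691 FPKM in the controls and 4.35, 0.827 and 1.05 FPKM in the mutants. Slc39a5, a zinc transporter, was at 0.452, 4.10 and 0.422 FPKM in the controls and 3.47, 0.258 and 0.578 FPKM in the mutants. The scaffold and the zinc transporter were thus detected in every library with the same 2 libraries on top.

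The remaining transporters were rarer. The sodium glucose cotransporter genes Slc5a1 and Slc5a2 reached at most 38 and 15 reads in a library, and Slc5a2 had 0 reads in control 1, which allows up to 0.0604 FPKM (3 reads). The organic anion transporter gene Slc22a6 was at 0.0569, 0.337 and 0.111 FPKM in the controls and 0.260, 0.0186 and 0.104 FPKM in the mutants. Its neighbour on chromosome 19, Slc22a8, was at 0.395, 0.378 and 0.199 FPKM in the controls, so that control 1 lay just above control 2, and at 0.590, 0.129 and 0.313 FPKM in the mutants. Slc3a1, a subunit of the cystine and dibasic amino acid transporter, was at 0.218, 0.329 and 0.176 FPKM in the controls and 0.138, 0.259 and 0.218 FPKM in the mutants. It was highest in control 2 but lowest in mutant 1, and so departed from most members in the mutant group.

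Among the metabolic genes of the proximal tubule, Ass1 (argininosuccinate synthase, of arginine synthesis) was the most abundant, at 1.40, 4.94 and 1.99 FPKM in controls 1 to 3 and 3.28, 2.56 and 2.66 FPKM in mutants 1 to 3. Ttc36, a tetratricopeptide repeat protein gene, was at 0.516, 4.22 and 0.137 FPKM in the controls and 3.13, 0.253 and 0.353 FPKM in the mutants. Fut9, a fucosyltransferase gene that makes the Lewis x antigen, was at 0.193, 0.641 and 0.225 FPKM in the controls and 0.315, 0.191 and 0.133 FPKM in the mutants. All 3 peaked in control 2 and, among mutants, in mutant 1, with the widest gap for Ttc36. Fbp1 (a gluconeogenesis enzyme), Slc27a2 (a fatty acid transporter and activating enzyme) and Spp2 (a secreted phosphoprotein) had at most 26 reads in any library. Spp2 had 2, 14 and 0 reads in the controls and 8, 0 and 0 in the mutants, and a count of 0 allows 0.0676 to 0.242 FPKM in these libraries. Fbp1 was highest among mutants in mutant 2, at 0.303 FPKM from 6 reads. Summed over the 18 proximal genes, the level was 5.11, 43.3 and 5.51 FPKM in the controls and 23.5, 6.38 and 7.83 FPKM in the mutants.

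The 4 promoter stretches printed here come from proximal genes and carry letters known from sites of HNF1 and HNF4, transcription factors of proximal tubule genes. RefSeq promoters (build GRCm38.p6, 250 bases before to 50 after a start site) were found for 25 of the 29 genes, 32 promoters in all. The letters GTTAAT, an HNF1 half-site, were found on either strand in 8 of the 32 (25.0%) and in 7.10% of 32851 promoters of all genes. The HNF4 core CAAAGTC was in 3 of the 32 (9.38%, and 4.44% of all), the AP-2 motif GCCNNNGGC in 7 (21.9%, and 16.6% of all) and TATAAA in 3 (9.38%, and 13.6% of all), with no overlap between matches of different motifs in the members' promoters. Each line gives 110 bases, from 100 before the start site to 10 from it on, 5′ to 3′ on the strand of the gene, with the HNF1 half-site and the HNF4 core in capitals. GENCODE M21 has no exon in these stretches. Those of Slc34a1 (chr13:55399548-55399657, plus strand) and Hnf4a (chr2:163547055-163547164, plus strand) lie within introns of their genes, and those of Slc22a6 (chr19:8617896-8618005, plus strand) and Slc3a1 (chr17:85028247-85028356, plus strand) lie in no annotated gene.
Slc34a1: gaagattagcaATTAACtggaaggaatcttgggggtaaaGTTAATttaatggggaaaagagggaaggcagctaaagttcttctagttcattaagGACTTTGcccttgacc
Hnf4a: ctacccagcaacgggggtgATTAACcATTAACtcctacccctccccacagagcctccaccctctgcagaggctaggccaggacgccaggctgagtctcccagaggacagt
Slc22a6: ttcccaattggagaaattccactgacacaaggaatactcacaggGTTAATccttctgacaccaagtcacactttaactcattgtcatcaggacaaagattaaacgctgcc
Slc3a1: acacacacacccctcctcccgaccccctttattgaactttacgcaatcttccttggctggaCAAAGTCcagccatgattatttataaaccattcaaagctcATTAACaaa
The half-sites lay at -89 to -84 and -61 to -56 in Slc34a1, at -81 to -76 and -74 to -69 in Hnf4a and at -56 to -51 in Slc22a6, counted with the start site as 1. Slc3a1, which did not peak in mutant 1, had an HNF4 core at -39 to -33 and a half-site at 2 to 7. A match is a run of letters and does not show that a factor was bound.

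Among genes of the loop of Henle and distal tubule, the salt transport genes were rare, with means of 0.605 FPKM (Slc12a1) and 0.134 FPKM (Kcnj1). The regulators were more abundant except Sim2, which had a mean of 0.625 FPKM. Slc12a1 (ENSMUSG00000027202.12, chr2:125152505-125230002), the sodium potassium chloride cotransporter of the thick ascending limb, had 1, 182 and 1 reads in controls 1 to 3 (0.00967, 1.53 and 0.00859 FPKM) and 199, 3 and 27 reads in mutants 1 to 3 (1.91, 0.0473 and 0.119 FPKM). Kcnj1, the potassium channel of the same segment, had 1, 35 and 0 reads in the controls and 22, 0 and 1 in the mutants, and 0 reads allow 0.0397 FPKM in control 3 and 0.0729 FPKM in mutant 2. Both partners in salt uptake were thus nearly confined to control 2 and mutant 1, apart from 27 reads of Slc12a1 in mutant 3. Umod, which encodes uromodulin and marks the mature thick limb, had 2 to 13 reads in every library and showed no such gap. Wfdc2 (ENSMUSG00000017723.11, chr2:164562413-164568510), a secreted protease inhibitor gene of distal and ureteric epithelium, was the most abundant member, at 90.5, 82.2 and 64.3 FPKM in the controls and 168, 76.1 and 84.1 FPKM in the mutants. It was highest in mutant 1 but, among controls, in control 1.

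The transcription factor genes of the distal lineage were present in all libraries. Sim2 had the widest range, at 0.125, 2.34 and 0.111 FPKM in controls 1 to 3 and 0.881, 0.143 and 0.154 FPKM in mutants 1 to 3. Its relative Sim1 was at 1.56, 3.22 and 0.919 FPKM in the controls and 2.20, 1.33 and 1.63 FPKM in the mutants. Both were highest in control 2. Tfap2b, an AP-2 factor of the distal tubule, was at 3.52, 5.64 and 2.13 FPKM in the controls and 7.13, 3.20 and 4.62 FPKM in the mutants. Its relative Tfap2a (ENSMUSG00000021359.16, chr13:40715302-40738376) was at 6.54, 4.69 and 3.58 FPKM in the controls and 6.94, 5.72 and 6.28 FPKM in the mutants, with control 1 inside the mutant range. Emx2, a homeobox factor of the ureteric bud that kidney development requires, was at 22.2, 32.6 and 14.1 FPKM in the controls and 26.9, 16.5 and 21.9 FPKM in the mutants.

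Mecom (ENSMUSG00000027684.16, chr3:29951296-30548008), a zinc finger factor, was the most even member, at 18.6, 18.9 and 15.3 FPKM in the controls and 18.1, 18.5 and 17.3 FPKM in the mutants. Papss2, which makes the sulphate donor, was at 2.33, 7.92 and 3.53 FPKM in the controls and 3.95, 3.64 and 4.64 FPKM in the mutants, high in control 2 and highest among mutants in mutant 3.

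**Figure D2:**
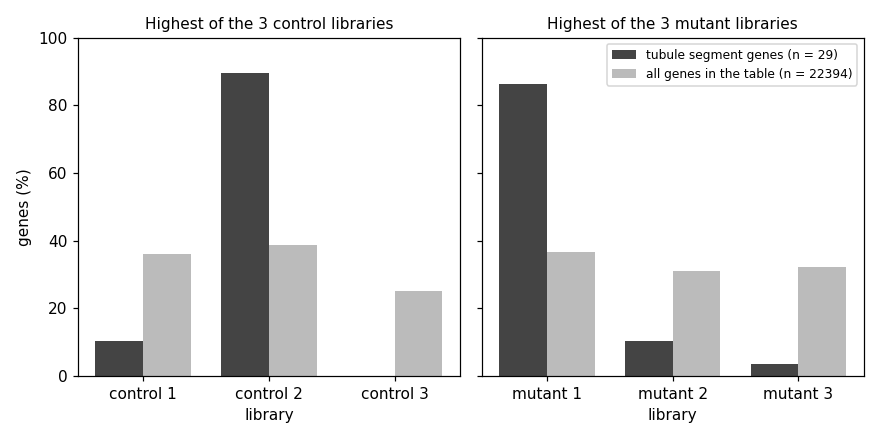
Percent of genes for which each library had the highest FPKM of its group, for the 29 tubule segment genes (dark bars) and all 22394 genes in the table (light bars). Control 2 and mutant 1 take 89.7% and 86.2% of the tubule segment genes, and the light bars lie between 25.2% and 38.6%.

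Set against genotype, no tubule gene passed the test. Of the 29 genes, 22 reached 10 normalized counts in at least 3 libraries and were tested with limma on log2(normalized count + 1), adjusted over all 16933 genes tested. None was called at an adjusted p under 0.05, where 0.307% of all genes tested were (0.219% higher and 0.0886% lower in mutants), and none had an unadjusted p under 0.05, where 9.63% did. None of the 22 had groups that did not overlap, where 16.7% of genes tested did. The smallest adjusted p was 0.58, for Tfap2a. The 7 genes not tested were Slc34a1, Slc5a1, Slc5a2, Fbp1, Spp2, Umod and Kcnj1. The authors' deposited table rests on a count model and called 0 of the 21 members that had an adjusted p in it, where it called 4.61% of such genes. By unadjusted p, 2 of the 29 members were under 0.05 in the authors' deposited table, made with DESeq2, where 12.3% of all genes were: Tfap2a (p = 0.0131) and Fut9 (p = 0.0144).

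Of the 22 tested genes 11 had a positive and 11 a negative log2 fold change (mutant minus control), with a median of -0.01, the same as over all genes tested. The median was -0.11 over 13 proximal and 0.21 over 8 loop and distal genes. Mecom had the narrowest interval, a log2 fold change of 0.04 (95% interval -0.25 to 0.32). Tfap2a had a log2 fold change of 0.39 (-0.11 to 0.90), Emx2 -0.02 (-0.70 to 0.65), Wfdc2 0.39 (-0.26 to 1.04) and Lrp2 0.17 (-0.89 to 1.24). The intervals of 3 genes with a wide gap between these and the other libraries spanned several units, from -2.91 to 2.29 for Hnf4a, -2.74 to 2.51 for Pdzk1 and -2.62 to 5.82 for Slc12a1. These 3 intervals hold changes of several fold in both directions, which this comparison could not detect.

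**Figure D3:**
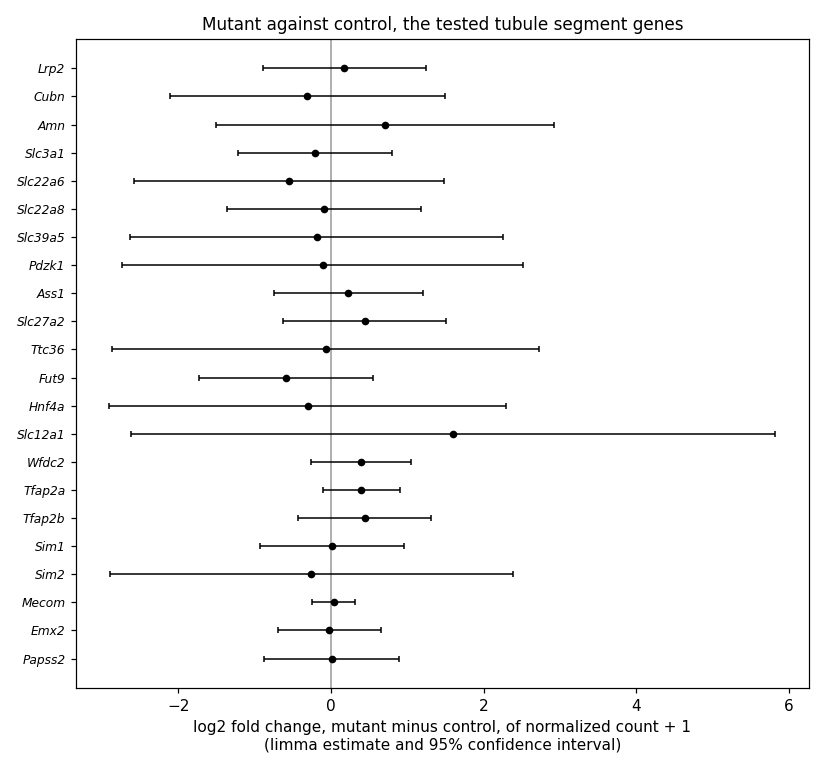
Log2 fold change (mutant minus control, of normalized count + 1) of the 22 tested tubule segment genes, as limma's estimate with its 95% confidence interval. Every interval includes 0, the narrowest being that of Mecom (-0.25 to 0.32) and the widest that of Slc12a1 (-2.62 to 5.82).

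The spread within groups was wide for the tubule genes. Across the 22 tested genes the standard deviation within groups had a median of 0.78 on the log2 scale, and of 0.25 over all genes tested. It exceeded 1 for 9 of them (Cubn, Amn, Slc22a6, Slc39a5, Pdzk1, Ttc36, Hnf4a, Slc12a1 and Sim2), where it did for 3.50% of genes tested. It ran from 0.13 for Mecom to 3.23 for Slc12a1. Low counts add counting error to this measure. For Hnf4a the 95% Poisson intervals were 955 to 1081 reads in control 2 and 25.2 to 49.8 reads in control 1, at depths of 24962204 and 21644399 reads. Among tested genes alone, control 2 was the highest control for 19 of 22 members and 41.6% of all, and mutant 1 the highest mutant for 19 of 22 members and 35.3% of all, with both in 13.9% of all.

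Without control 2 the median log2 fold change of the 22 genes was 0.57, without mutant 2 it was 0.40, and without control 3 it was -0.37, so that single libraries set its sign. Without control 2 an unadjusted p under 0.05 was reached by 5 of the 22 in limma, where 10% of all genes reached it. They were Slc12a1, Amn, Ass1, Tfap2b and Papss2, all higher in mutants, with log2 fold changes of 0.50 to 3.74. Control 2 was the highest control for all 5, so leaving it out by itself moves each of them towards higher in mutants. Controls 1 and 3 then held only 1 and 1 reads of Slc12a1, and 5 and 10 of Amn. The number of members under 0.05 was 1 without control 1 (16.5% of all genes), 2 with library weights (17.1%) and 2 without control 2 and mutant 1 together (9.54%). No member was called in these fits, nor without control 2 and mutant 1 together (median 0.28, smallest limma adjusted p 0.367).

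Other genes of the same segments, in lists made beside the members, were also often highest in these libraries. Of 44 further proximal tubule genes, 36 were in the table and 24 tested. Limma called 1 of them, which was higher in mutants, where it called 0.307% of all genes tested. An unadjusted p under 0.05 was found for 4, where 9.63% of all genes tested had one. The called gene was Slc16a9, a member of the monocarboxylate transporter family that was chosen after its values were seen, with means of 1.16 ± 0.112 FPKM over the controls and 2.86 ± 0.225 FPKM over the mutants (SD, n = 3 each; log2 fold change 1.30, limma adjusted p = 0.0369). Its call was lost with a replicate block (limma adjusted p = 0.122), after quantile normalization (0.0528), on FPKM (0.0733) and without any single library except control 2 (0.104 to 0.208). It was called in the authors' deposited table (adjusted p = 0.00552), which in all called 2 of these genes higher and 1 lower. Of 27 further loop and distal genes 25 were in the table and 22 tested, with 0 called by limma. An unadjusted p under 0.05 in limma was found for 3 of the 22, beside the same 9.63% of all genes tested. The authors' deposited table called 1 of them lower, and 4.61% of all genes with an adjusted p in it. The median log2 fold change was 0.24 over the 24 proximal and 0.03 over the 22 loop and distal genes.

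Control 2 was the highest control for 25 of the 36 proximal and 20 of the 25 loop and distal genes, where it was for 38.6% of all genes. Mutant 1 was the highest mutant for 22 and 17 of them, where it was for 36.5% of all genes. Lrpap1, the chaperone of megalin and one of the most abundant of these genes, was even, at 23.4, 20.9 and 27.6 FPKM in the controls and 28.4, 23.7 and 29.3 FPKM in the mutants. Irx1, an Iroquois factor of the nephron, was chosen after its values were seen and had the pattern of Hnf4a, at 0.483, 8.82 and 0.840 FPKM in the controls and 5.45, 1.20 and 1.55 FPKM in the mutants.

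Markers of other cells were measured beside the tubule genes, as a score for each list and library: the list's average log2(normalized count + 1), set to 0 at the control mean. The 13 proximal members tested scored 1.48 in control 2 and 1.03 in mutant 1, and -0.89 to -0.34 in the 4 others. The 8 loop and distal members scored 1.18 in both libraries and -0.84 to 0.06 elsewhere. Epithelial genes that tubule and ureteric bud share were also highest there, at 0.61 and 1.02, with -0.43 to 0.03 elsewhere, and Krt8, a keratin of simple epithelia, was at 30.6, 66.4 and 34.2 FPKM in the controls and 86.7, 46.8 and 38.3 FPKM in the mutants. Ureteric trunk genes scored 0.65 and 1.02 in these libraries and -0.38 to 0.30 elsewhere. Podocyte genes scored 0.94 and 0.42, with -0.51 to 0.18 elsewhere. Their summed level was nearly even, at 213, 216 and 216 FPKM in controls 1 to 3 and 233, 208 and 217 FPKM in mutants 1 to 3. Control 2 was the highest control for 8 of the 10 podocyte genes (38.6% of all genes in the table). Mutant 1 was the highest mutant for 6 (36.5%), and both held for 4 (13.8%).

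**Figure D4:**
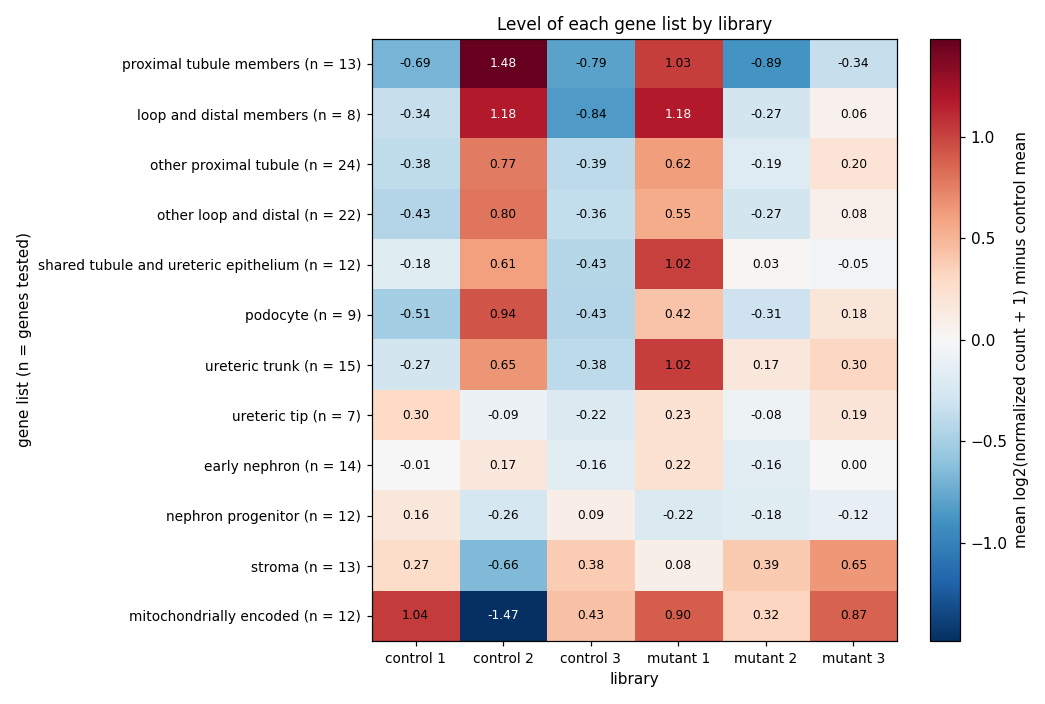
Score of 12 gene lists (rows) in the 6 libraries (columns), as a list's average log2(normalized count + 1) with the control mean set to 0. Red is above and blue below the control mean. The proximal tubule row reads 1.48 in control 2 and 1.03 in mutant 1 and -0.89 to -0.34 elsewhere. The early nephron row stays between -0.16 and 0.22, with its highest values also in control 2 and mutant 1.

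Genes of earlier nephron stages had narrower ranges. Early nephron genes scored between -0.16 and 0.22 in all 6 libraries, but were again highest in control 2 (0.17) and mutant 1 (0.22). Control 2 was the highest control for 9 of these 14 genes (38.6% of all genes in the table). Mutant 1 was the highest mutant for 12 (36.5%), and both held for 8 (13.8%). Nephron progenitor genes scored -0.26 in control 2, -0.22 in mutant 1 and -0.18 to 0.16 in the 4 others. Six2, a progenitor factor, was at 176, 97.9 and 158 FPKM in the controls and 118, 125 and 125 FPKM in the mutants. Stromal genes scored -0.66 in control 2, 0.08 in mutant 1 and 0.27 to 0.65 in the 4 others. The mitochondrially encoded genes scored -1.47 in control 2 but 0.90 in mutant 1. In whole kidneys, fewer cells of a type and less RNA per cell cannot be told apart, and the part of each library's make-up in the tubule values was not tested.

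Hnf4a, Ass1, Fbp1, Slc27a2, Spp2 and Ttc36 are also expressed in liver, so hepatocyte genes were measured beside them. The summed level of the 12 hepatocyte genes was 1.95 to 4.01 FPKM in controls and 1.73 to 5.70 FPKM in mutants, highest in control 2 and mutant 1. Control 2 was the highest control for 7 of the 12 (38.6% of all genes in the table). Mutant 1 was the highest mutant for 9 (36.5%), and both held for 6 (13.8%). Most were at low levels, and 3 of the 12 were tested. Albumin (Alb) was at 0.383, 0.275 and 0.480 FPKM in the controls and 0.202, 0.257 and 0.288 FPKM in the mutants, and was not highest in these libraries. Afp (alpha-fetoprotein) was at 0.111, 1.64 and 0.454 FPKM in the controls and 1.68, 0.145 and 0.253 FPKM in the mutants. Ttr (transthyretin), chosen after its values were seen, was at 0 reads in control 1 and mutant 2. The part of liver RNA in the tubule values was not tested.

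Exons of 11 of the 29 genes overlap an exon of a gene on the opposite strand in GENCODE M21, among them Slc34a1 (with Pfn3), Slc3a1 (with Prepl), Pdzk1 (with Gpr89 and Cd160), Emx2 (with Emx2os) and Mecom (with Mecomos). The sources used here do not say if counting used strand, and without it the reads of such pairs cannot be told apart. Hnf4a, Slc12a1, Kcnj1, Slc39a5, Lrp2 and Sim2 had no such overlap.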

How the data were processed

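The authors' processing, per the submitters' processing notes, names Trim Galore, STAR, HTSeq and DESeq2 and the build mm10, without roles. The deposited library columns hold FPKM made by the authors, a unit read from the values and not from a header. Further columns deposited by the authors give a mean normalized signal, a log2 fold change and its error, a Wald score, and a p-value before and after adjustment.

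Each FPKM was multiplied by the ratio of the deposited mean signal to the mean FPKM of its gene, which gives a normalized count without gene length. Divided further by 1 factor per library, all 134364 values (100%) came out as whole reads to within 1e-06. Limma 3.58.1 (R 4.3.3, intensity trend, no covariate) was fitted to log2(normalized count + 1) of genes with at least 10 normalized counts in 3 or more libraries, with Benjamini-Hochberg adjustment over 16933 genes and calls under 0.05. Fold changes on that scale understate low genes. The fit was first tested on simulated counts, drawn independently for each gene and library with the typical spread of genes at a similar level. That test did not cover libraries in which many genes shift together, nor a spread as wide as that of many tubule genes. Alternatives were 2 pseudocounts, 2 filters, FPKM, quantile normalization, library weights, a replicate block, and libraries left out. The members and gene lists were chosen with earlier results of these data known. All members are named, and of each other list up to 3 tested genes of highest mean FPKM could be named, others being said to be chosen after their values were seen. Positions are from GENCODE M21 (GRCm38, the assembly of mm10), matched without the version for 5 of 29 genes. Intervals on reads and ratios, and the 3 reads that a count of 0 allows, cover counting error only, since reads are not independent molecules.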

Additional observations from a re-analysis of the deposited data

How the results depend on the processing

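None of the tubule genes was called as reported or under any of the 16 alternatives, and the smallest adjusted p of any tubule gene ran from 0.146 (the authors' deposited table) to 0.858 (without mutant 1). Over all genes the number called was 52 and became 33 on FPKM, 380 with library weights, 17 with the replicate block, 185 without control 2 and mutant 1 together and 732 in the authors' deposited table, and 9 to 158 when 1 library was left out. The labels do not say whether equal replicate numbers mark paired libraries. Deviations of controls and mutants 1, 2 and 3 from their group means correlated at 0.00081, -0.098 and 0.31 across genes. The value for number 3 was the highest of any pair of a control and a mutant. Control 2 with mutant 1 came next at 0.23, and the lowest was control 3 with mutant 1 at -0.37. With 3 libraries per group, these values cannot show whether litters or batches were shared. The block changed no call of a tubule gene. Control 2 was the highest control for 83.3% to 86.4% and mutant 1 the highest mutant for 83.3% to 90.9% of the tubule genes tested, after quantile normalization or at a minimum of 50 normalized counts; the count over tested genes alone was chosen after seeing the data.

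No log2 fold change of a tubule gene was past the threshold, and 16 of 22 changed sign under at least 1 setting. With library weights the values that changed sign were Slc3a1 0.15, Slc22a8 0.0564, Slc39a5 0.0594, Pdzk1 0.41, Ttc36 0.65, Hnf4a 0.19, Sim2 0.29 and Emx2 0.29. Without control 2 and mutant 1 together they were Slc3a1 0.25, Pdzk1 0.62, Ttc36 0.10, Hnf4a 0.41, Sim2 0.31 and Emx2 0.10. In the authors' deposited table they were Lrp2 -0.0893, Amn -0.21, Slc22a8 0.25, Ass1 -0.27, Sim1 -0.18 and Papss2 -0.46. Quantile normalization gave Sim1 -0.0388, Emx2 0.0211 and Papss2 -0.0406, and FPKM gave Sim1 -0.0264 and Papss2 -0.0188. Estimates in the authors' deposited table that kept their sign could still differ in size in either direction. Hnf4a was at -1.38 there and -0.31 in limma, Pdzk1 at -1.22 and -0.11, and Slc12a1 at 0.78 and 1.60. The median there over the 29 members was -0.27. The cause was not tested. Leaving out 1 library at a time gave -0.23 to 0.65 for Lrp2, -1.06 to 0.46 for Cubn, -0.0453 to 1.85 for Amn, -0.40 to 0.0223 for Slc3a1, -1.30 to 0.31 for Slc22a6, -0.59 to 0.45 for Slc22a8, -1.22 to 0.87 for Slc39a5, -0.94 to 1.35 for Pdzk1, -0.16 to 0.74 for Ass1, -1.14 to 1.17 for Ttc36, -1.16 to 1.13 for Hnf4a, -0.41 to 0.49 for Sim1, -1.09 to 1.13 for Sim2, -0.0637 to 0.0902 for Mecom, -0.33 to 0.27 for Emx2 and -0.38 to 0.50 for Papss2. At these depths Slc34a1, Slc5a1, Slc5a2, Fbp1, Spp2, Umod and Kcnj1 reached 10 normalized counts in fewer than 3 libraries and were not tested.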
